A study of Mus musculus with 6 samples.

Results

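The contractile genes of smooth muscle were followed in primary mouse aortic endothelial cell cultures, as 33 named genes of the actin and myosin filaments, their anchors, the kinase and phosphatase that switch myosin, their transcription factors, and receptors of mural cells. Each gene was read from its probe set with the highest mean level over the 6 arrays. All 33 were found among the 18193 genes named on the array, and 26 reached the level filter described below, as did 11208 genes in all. Both groups of mice are labelled strain C57 and the cells were untreated. The control cultures came from mice without a transgene. The other cultures came from mice labelled transgenic_PPARG_V290M, which carry a dominant negative form of human PPARG, a nuclear receptor for fatty acids, under the CDH5 promoter of endothelial cells. Per the study's design text, 10 mice per group gave 5 cultures of 2 pooled mice each, and 3 cultures per group were arrayed, so that n = 3 in each group throughout. Ages are not given in the sources used here.

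Smooth muscle cells contract when calcium bound to calmodulin activates the myosin light chain kinase, which phosphorylates the regulatory light chain of myosin. A phosphatase built of a catalytic subunit and a targeting subunit reverses this step, and small inhibitor proteins hold the phosphatase back. Many genes of the apparatus are switched on by serum response factor, SRF, together with its partners myocardin and the MRTF proteins, at a DNA element called the CArG box, a run of A and T bases between CC and GG. Several of the genes, such as Acta2 and Tagln, are also active in pericytes and in activated fibroblasts, while Myh11 and Cnn1 are markers of the differentiated smooth muscle cell. Other members, such as Tagln2, Cnn2, Myl6, Vim, Flna and Actn1, are active in many cell types, endothelium included.

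Because SRF links these genes, the 250 bases before the start of each gene were searched for the CArG box. The windows are RefSeq's for assembly GRCm38.p6, and 28 of the 33 genes had one, in 32 windows. Actg2, Myh11, Myocd, Pdgfrb and Tagln had no window and were not searched. A CArG box lay in the windows of 4 of these 28 genes (14.3%), Cnn2, Myl6, Myl9 and Srf, against 1.62% of the 27025 genes in the table. With 1 C or G allowed in the A and T run, a form known from the Acta2 promoter, 6 of 28 genes had a match (21.4%), with Acta2 and Ppp1r14b added, against 9.78%. The box reads alike on both strands. The M-CAT element of TEAD factors, CATTCC on either strand, lay in 9 of 28 genes (32.1%) against 14.4%. A PPARG-type repeat, AGGTCANAGGTCA on either strand, lay in 0 of 28 genes, against 0.0407% of all genes. At a share so low, 0 of 28 carries no information on PPARG sites in these genes. The matches are letters in these windows and say nothing of binding. The window of Cnn2 (chr10:79988350-79988599, + strand) is shown as the thin filament gene with an exact box, and that of Acta2 (chr19:34255374-34255623, - strand) as the one with both relaxed boxes, with the matches in capitals.
Cnn2: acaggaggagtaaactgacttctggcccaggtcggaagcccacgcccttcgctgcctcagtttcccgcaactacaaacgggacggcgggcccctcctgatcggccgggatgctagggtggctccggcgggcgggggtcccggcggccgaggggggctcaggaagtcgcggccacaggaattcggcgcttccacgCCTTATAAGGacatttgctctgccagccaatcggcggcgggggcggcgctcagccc
Acta2: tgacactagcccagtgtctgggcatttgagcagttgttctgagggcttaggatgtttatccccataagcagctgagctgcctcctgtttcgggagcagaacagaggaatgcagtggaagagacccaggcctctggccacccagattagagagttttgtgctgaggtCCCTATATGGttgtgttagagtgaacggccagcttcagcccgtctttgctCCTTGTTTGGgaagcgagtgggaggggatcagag

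The matches of the other genes are given with 10 bases on each side, so that the boxes can be compared base by base. Those of Srf, which has 2 exact boxes, are at chr17:46556225-46556254 and chr17:46556205-46556234 (- strand). That of Myl9 is at chr2:156775293-156775322 (+ strand), with a relaxed match at chr2:156775355-156775384. That of Myl6 is at chr10:128493040-128493069 (- strand), before 1 of its 2 starts, and the relaxed match of Ppp1r14b is at chr19:6974918-6974947 (+ strand), overlapped by another shifted by 1 base.
Srf, distal: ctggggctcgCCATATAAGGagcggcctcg
Srf, proximal: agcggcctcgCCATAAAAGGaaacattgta
Myl9, exact: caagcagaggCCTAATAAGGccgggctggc
Myl9, relaxed: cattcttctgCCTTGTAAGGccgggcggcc
Myl6, exact: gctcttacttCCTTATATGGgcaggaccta
Ppp1r14b, relaxed: gcggggctggCCCTTTAAGGgggtgtggtc

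Levels are given as log2(signal + 16) of the deposited signals, and a gene counts as above the level filter where its mean over the 6 arrays reaches 7.717, the median over every probe set other than controls. On this scale 26 of the 33 contractile genes lay above the filter (61.6% of all genes did). The other 7 were Actg2, Cnn1, Myh11, Des, Pln, Kcnmb1 and Cspg4. Cnn1 and Myh11, markers of the differentiated smooth muscle cell, were thus dim on average. Myh11 passed the filter in non-transgenic replicates 1 (7.92) and 3 (7.81) and in transgenic replicate 3 (8.91). Other genes tied to smooth muscle lay above the filter on average, among them Lmod1 (10.74), Smtn (9.85), Ppp1r14a (9.53) and Myocd (8.75). Of markers of other cells, 15 of 15 fibroblast genes on the array lay above the filter, 7 of 8 of adipocytes, 8 of 20 of endothelium, 4 of 7 of mesothelium, 3 of 15 of leukocytes and macrophages, and 2 of 13 of skeletal and heart muscle. The endothelial genes Cdh5 (5.56 to 7.19 over the arrays), Pecam1 (4.66 to 6.34) and Nos3 (6.25 to 7.63) stayed below it. The 8 above it were Cd34, Eng, Ramp2, Flt1, Egfl7, Emcn, Plvap and Tek. The label of the cultures is thus not borne out by Cdh5, Pecam1 and Nos3, but the list as a whole is divided. Probe sets also differ in brightness, and cell identity was not tested. No value in the table was 0. In cultured cells measured in bulk, fewer cells of a type and less RNA per cell cannot be told apart.

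Arrays differed in ways that bear on every result. Transgenic replicate 3 had a mean rank correlation across genes of 0.972 with the non-transgenic arrays and 0.907 with the other transgenic ones, so that it stands apart from its group. The summed signal of the leukocyte and macrophage markers was 2327 to 3960 in control cultures but 10609, 22126 and 3541 in transgenic replicates 1, 2 and 3, with 10 of 15 markers above the filter in replicate 2 against 3 or 4 elsewhere. In replicate 1 the sum rests on Cd53 (12.65, against 7.74 to 10.41 in controls) and Csf1r (11.03, against 8.61 to 9.06). Csf1r was also high in replicates 2 and 3 (10.49 and 10.59), while Cd53 was at 13.29 and 8.43 there. Ptprc, below the filter on every array, was lower in all 3 (5.83 to 5.89, against 5.96 to 7.66). The mean log2 deviation over the 15 markers was 0.225 in replicate 1 and 1.97 in replicate 2, against -0.231 to 0.213 among controls. The summed signal of the adipocyte markers was 43530 to 77749 against 22211, 11872 and 38825. That of the skeletal and heart muscle markers was 3008 to 6210 against 1253, 983 and 4868. Only Tnnt2 and Myh1 of these 13 muscle markers lay above the filter. Tnnt2 was at 10.93, 11.71 and 12.16 against 7.85, 8.54 and 11.84, and Myh1 at 8.51, 8.94 and 8.96 against 5.68, 5.95 and 8.30. The summed fibroblast signal was 213533 to 241140 against 196523 to 214806, the endothelial one 13870 to 18706 against 15145 to 20656, and the mesothelial one 2266 to 4835 against 1955 to 5832. For the Gapdh control, signal at the 3' end over that at the 5' end, a measure of RNA length, was 1.59 ± 0.105 (SD, n = 3) against 1.33 ± 0.121 (SD, n = 3), and the groups were apart (two-sided exact permutation p = 0.1, as small as 3 against 3 can give). The same ratio of the actin control did not separate them, at 2.17, 2.00 and 1.83 against 1.74, 1.40 and 2.21 (two-sided exact permutation p = 0.5). The part of these markers and ratios in the results below was not tested. The human transgene was not checked here, since the array's probe sets were made for mouse genes.

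**Figure D1:**
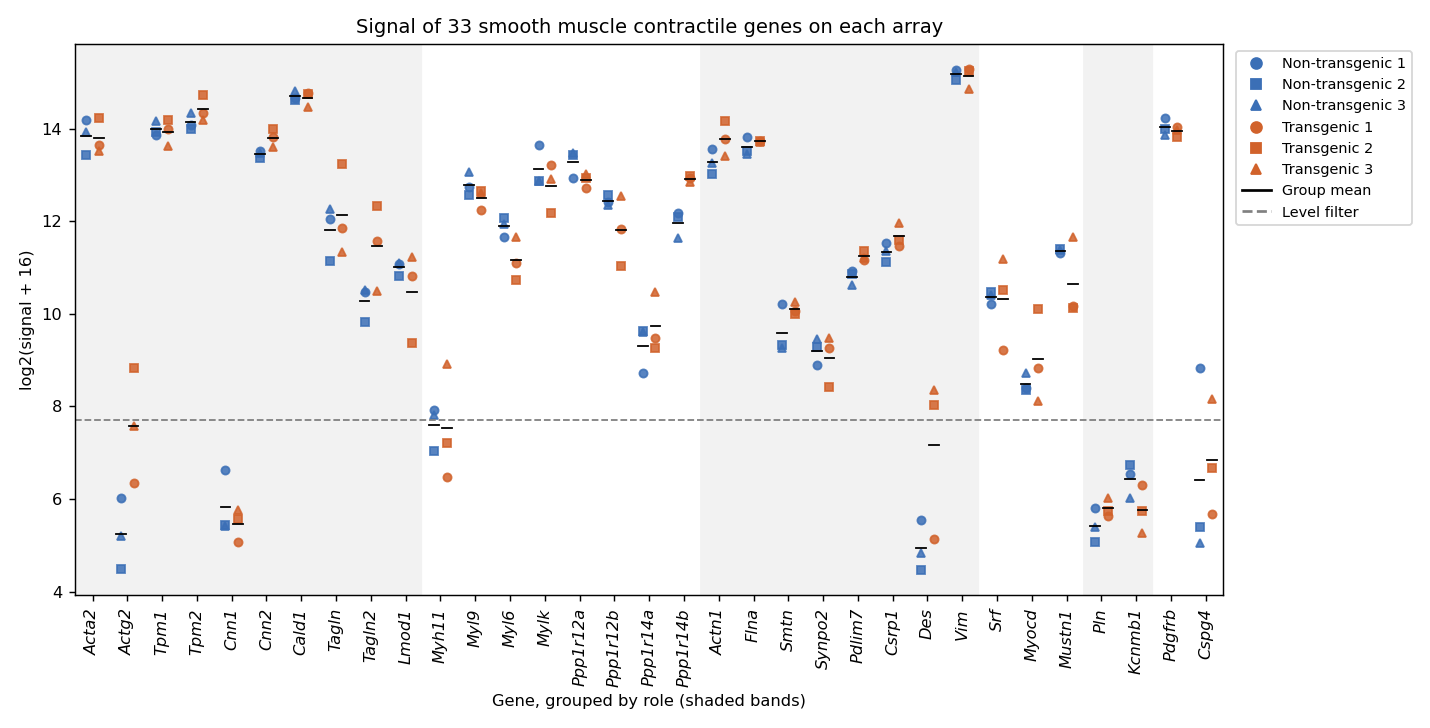
Level of each of the 33 contractile genes, as log2(signal + 16), on the 3 non-transgenic (blue) and 3 transgenic (orange) arrays, with symbols for the replicate, black bars for group means and a dashed line at the filter of 7.717. Probe sets differ in brightness for reasons of their own, so levels should be read within a gene and not between genes. The 3 transgenic points of Ppp1r14b sit together above all non-transgenic ones.

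The question was whether the contractile genes differed with the endothelial transgene. No contractile gene passed the test. limma called 0 of the 26 at a Benjamini-Hochberg adjusted p of 0.05, as it called 0% of all 11208 genes. An unadjusted p under 0.05 was found for 6 of the 26, 5 with a higher transgenic mean (Ppp1r14b, Tagln2, Cnn2, Pdlim7 and Actn1) and 1 with a lower one (Myl6), against 11.5% of all genes (6.47% higher and 5.02% lower). The groups did not overlap for 3 of the 26, Ppp1r14b, Cnn2 and Pdlim7, all higher, which is 11.5% of them against 16.1% of all genes (9.39% higher and 6.72% lower). Differences were transgenic minus non-transgenic and ran from -0.73 to 1.20, with 12 genes higher and 14 lower (47.5% and 52.5% of all genes) and a median of -0.0381, beside a median of -0.0212 over all genes. Centring each array on its median added 0.27 to the difference of every gene. It moved the median of all genes to 0.25, and the contractile genes moved with it to 0.23 and to 19 higher and 7 lower, while quantile normalization gave 15 higher and 11 lower. The median size of a difference was 0.36, against 0.24 over all genes.

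**Figure D2:**
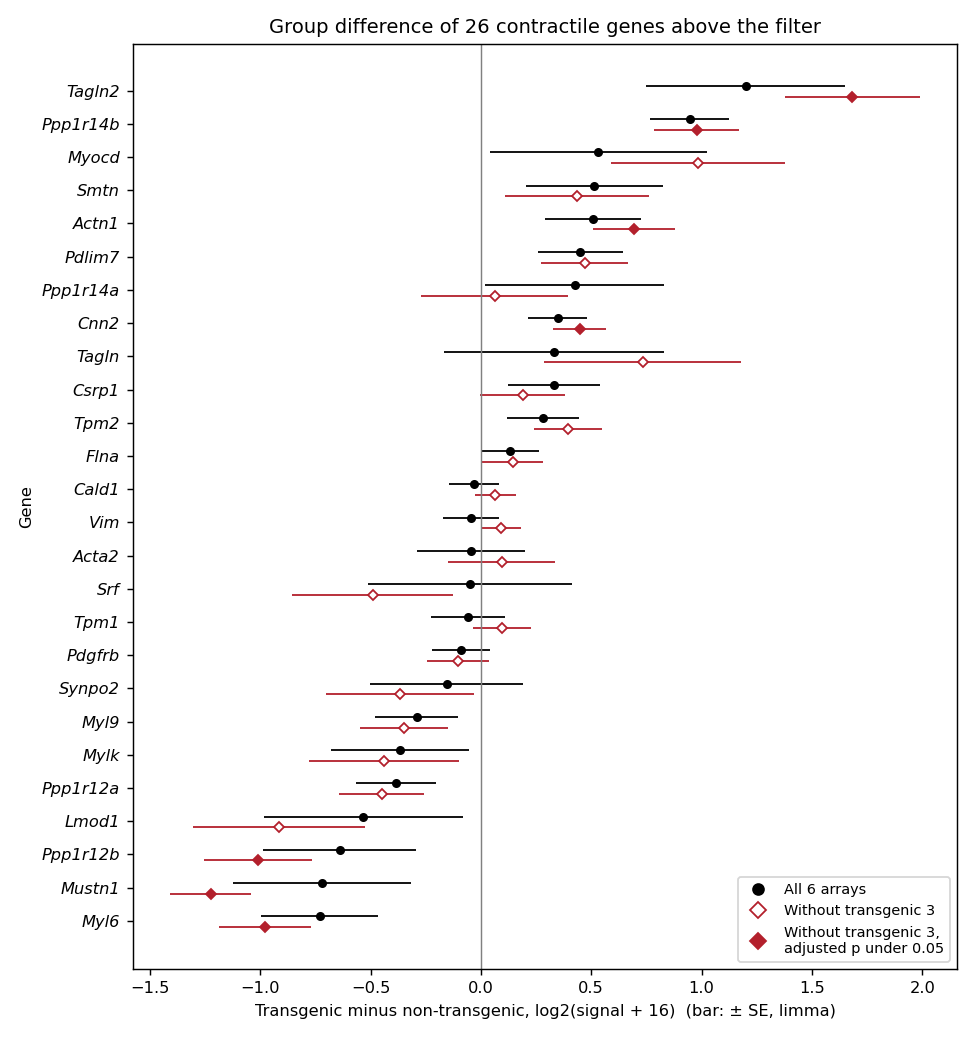
Difference between the groups in log2(signal + 16), as transgenic minus control with limma's standard error, for the 26 contractile genes above the filter, over all 6 arrays (black) and without transgenic replicate 3 (red, filled where the adjusted p is under 0.05). Over all arrays differences ran from -0.73 for Myl6 to 1.20 for Tagln2. The 7 filled points are those of Tagln2, Ppp1r14b, Actn1, Cnn2, Ppp1r12b, Mustn1 and Myl6.

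On the thin filament, Acta2, Tpm1 and Tpm2 overlapped between the groups and their differences did not pass the test, while Actg2, too dim to test, did not overlap. Acta2, the smooth muscle alpha-actin, had levels of 14.18, 13.44 and 13.93 without the transgene and of 13.64, 14.24 and 13.52 with it. Its groups overlapped, with transgenic replicate 2 highest and non-transgenic replicate 2 lowest. The difference was -0.0455 ± 0.24 (SE, limma adjusted p = 0.945), turning to 0.22 with each array centred on its median. It also turned to 0.12 without non-transgenic replicate 1, to 0.0347 without transgenic replicate 1 and to 0.0939 without transgenic replicate 3. Its probe set is of a type (ending in _s_at) that can read more than one related transcript. Tpm1, one of the tropomyosins that lie along actin, differed by -0.0588 ± 0.17 and turned to 0.21 with median centring, to 0.0344 with non-transgenic replicate 3 left out and to 0.0972 with transgenic replicate 3 left out. Tpm2, the other one, differed by 0.28 ± 0.16 (limma adjusted p = 0.503), with values of 14.07, 13.99 and 14.35 against 14.34, 14.72 and 14.19. Transgenic replicate 2 of Tpm2 lay above all non-transgenic values and the others inside their range, and the difference was 0.13 without that replicate and 0.55 with median centring. Cald1, caldesmon, which binds actin and holds back myosin, differed by -0.0313 ± 0.11 and turned to 0.0249 with quantile normalization and 0.24 with median centring, and to 0.0203 with non-transgenic replicate 3 left out and 0.0653 with transgenic replicate 3 left out. Actg2, the gamma-actin of visceral muscle, was below the filter at 6.02, 4.49 and 5.20 against 6.35, 8.83 and 7.57. All 3 transgenic values of its only probe set lay above the non-transgenic ones, but only replicate 2 reached the filter, and no test was made.

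The transgelins and calponins are actin-bundling and actin-binding proteins, each with a form typical of smooth muscle and a widely expressed one. Tagln, or SM22, was at 12.05, 11.14 and 12.26 against 11.86, 13.24 and 11.34. Transgenic replicate 2 stood above all others and the remaining transgenic cultures lay inside the non-transgenic range. The difference of 0.33 ± 0.50 (SE, limma adjusted p = 0.791) turned to -0.22 without transgenic replicate 2 and to -0.0096 without non-transgenic replicate 2. Tagln2, the widely expressed transgelin, was at 10.46, 9.82 and 10.53 against 11.58, 12.32 and 10.50. Transgenic replicates 1 and 2 lay above every non-transgenic culture and replicate 3 lay just under the highest of them. The difference was 1.20 ± 0.45 (SE, limma adjusted p = 0.428), which is 2.30-fold, and it was 0.77 without transgenic replicate 2. Cnn2, the widely expressed calponin, was at 13.53, 13.38 and 13.49 against 13.82, 14.01 and 13.61. Every transgenic value exceeded every non-transgenic one, by a difference of 0.35 ± 0.13 (SE, limma adjusted p = 0.428), and this was so of replicate 3 as well. Cnn1, the calponin of smooth muscle, was below the filter in all cultures, at 6.63, 5.45 and 5.42 against 5.06, 5.57 and 5.76. Lmod1, leiomodin, which starts new actin filaments in smooth muscle, was at 11.08, 10.82 and 11.11 against 10.81, 9.36 and 11.24. Its difference of -0.53 ± 0.45 came mostly from transgenic replicate 2 and was 0.0215 without it, and -0.92 without transgenic replicate 3.

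Acta2, Tagln, Tagln2, Tpm2, Cnn2 and Actn1 shared an order in part. All 6 were highest in transgenic replicate 2 and lowest in non-transgenic replicate 2, a pattern found in 5.86% of all genes and noticed after the values were seen. Transgenic replicate 2 held the highest value for 10 of the 26 genes (21.3% of all genes) and the lowest for 7 (31.5%). It is also the culture with the highest summed signal of leukocyte and macrophage markers.

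**Figure D3:**
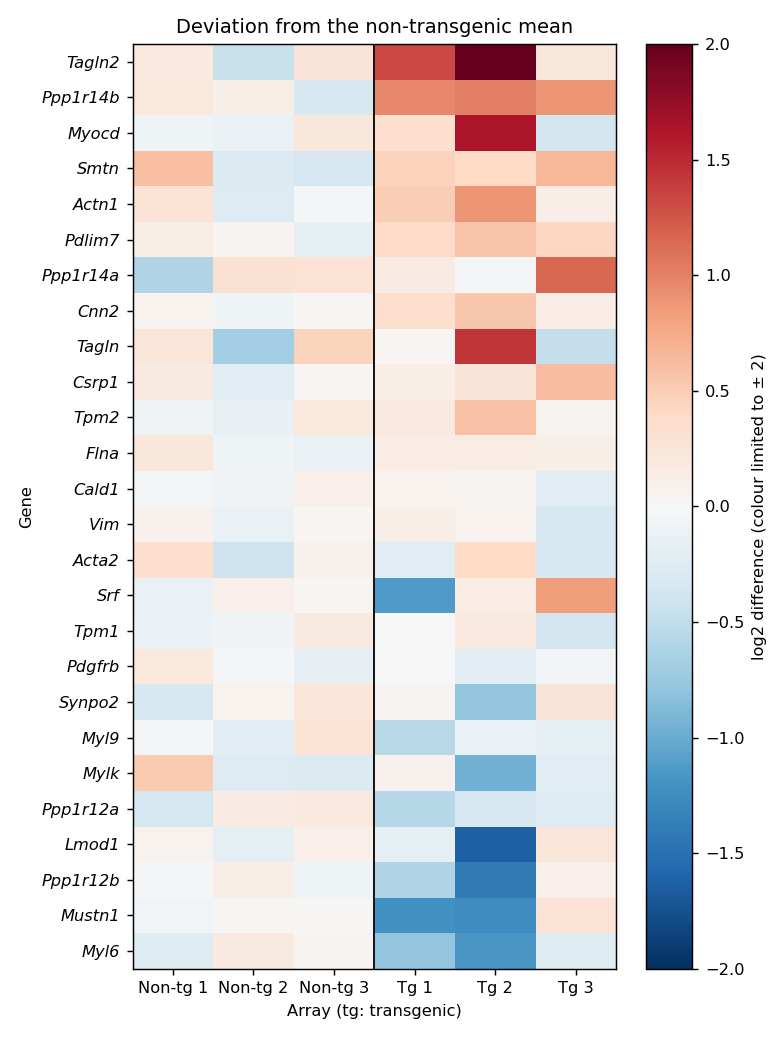
Deviation of each array from the mean of the non-transgenic arrays, in log2(signal + 16), for the 26 contractile genes above the filter, ordered by their group difference. Transgenic replicates 1 and 2 share the red of Tagln2 and the blue of Myl6 and Mustn1, while transgenic replicate 3 is paler there or of the other sign, and the row of Ppp1r14b is red in all 3 transgenic arrays.

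Of the 7 tested genes of myosin and its phosphorylation, only the inhibitor Ppp1r14b did not overlap between the groups on its brightest probe set. That is 14.3% of them, against 16.1% of all genes. Both targeting subunits of the phosphatase had a lower transgenic mean that did not pass the test. Ppp1r14b, which codes for PHI-1, an inhibitor of the myosin phosphatase, was at 12.17, 12.10 and 11.64 in controls against 12.93, 12.97 and 12.85 with the transgene. The 3 transgenic cultures lay close together and above every non-transgenic one, transgenic replicate 3 included. The difference was 0.95 ± 0.18 (SE, limma adjusted p = 0.428), which is 1.93-fold, and it ran from 0.78 to 1.05 with each array left out in turn. Its second probe set above the filter differed by 0.99, again without overlap, and the scalings gave 0.90 and 1.21. Ppp1r14a, which codes for CPI-17, the related inhibitor of smooth muscle, was at 8.72, 9.62 and 9.61 against 9.49, 9.27 and 10.47. Its groups overlapped, with transgenic replicate 3 highest, and the difference was 0.43 ± 0.41 (SE, limma adjusted p = 0.670), or 0.0626 without that replicate. It was 0.13 with non-transgenic replicate 1 left out and 0.66 with transgenic replicate 2 left out.

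Ppp1r12a, the subunit (MYPT1) that brings the phosphatase to myosin, was at 12.93, 13.44 and 13.48 against 12.72, 12.95 and 13.03. Non-transgenic replicate 1 lay among the transgenic values and the other 2 non-transgenic cultures above them. The difference was -0.39 ± 0.18 (SE, limma adjusted p = 0.449), and all 4 of its probe sets were lower, with differences from -0.52 to -0.33. That of the brightest was -0.12 with median centring. Ppp1r12b (MYPT2), the related subunit of striated muscle, was at 12.41, 12.58 and 12.36 against 11.84, 11.03 and 12.55, with transgenic replicate 3 inside the non-transgenic range. It differed by -0.64 ± 0.35 (SE, limma adjusted p = 0.480), or -0.25 without transgenic replicate 2. A second probe set of Ppp1r12b was at 9.33, 9.66 and 9.63 against 7.32, 6.86 and 8.38, a difference of -2.02 without overlap, and another differed by -0.0452. The probe sets of Ppp1r12b thus disagree on the size.

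Myl6, the essential light chain of non-sarcomeric myosin, was at 11.65, 12.07 and 11.95 against 11.10, 10.73 and 11.65. Transgenic replicates 1 and 2 lay below every non-transgenic culture and replicate 3 was level with the lowest of them. The difference was -0.73 ± 0.27 (SE, limma adjusted p = 0.428), which is 1.66-fold lower, from the 1 probe set named for the gene, and it was -0.46 with median centring. Myl9, the regulatory light chain that the kinase phosphorylates, differed by -0.29 ± 0.19 from 12.75, 12.56 and 13.06 to 12.24, 12.65 and 12.61. That of Myl9 was -0.16 without non-transgenic replicate 3 or without transgenic replicate 1, and -0.0217 with median centring. Mylk, that kinase, was at 13.66, 12.87 and 12.86 against 13.21, 12.17 and 12.91. Both genes overlapped between the groups, and the difference of Mylk was -0.37 ± 0.31, or -0.0708 without transgenic replicate 2 and -0.10 without non-transgenic replicate 1. Myh11, the myosin heavy chain of differentiated smooth muscle, lay near the filter at 7.92, 7.04 and 7.81 against 6.47, 7.22 and 8.91. Its mean was below the filter and it was not tested, the highest value being that of transgenic replicate 3.

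Among the proteins that anchor actin, 5 of 6 tested genes had a higher transgenic mean, beside 47.5% of all genes. The sixth, Synpo2, had one on its brightest probe set with median centring, where 75.3% of all genes did. Actn1, alpha-actinin of non-muscle cells, which crosslinks actin, was at 13.56, 13.02 and 13.25 against 13.78, 14.17 and 13.41. Transgenic replicates 1 and 2 exceeded every non-transgenic culture and replicate 3 did not. The difference was 0.51 ± 0.22 (SE, limma adjusted p = 0.434), and its other probe sets gave 0.999, without overlap, and 1.15, while without transgenic replicate 2 it was 0.32. Pdlim7, a PDZ and LIM domain protein of actin bundles, was at 10.92, 10.85 and 10.62 against 11.17, 11.36 and 11.21. The groups did not overlap, with a difference of 0.45 ± 0.19 (SE, limma adjusted p = 0.434). The second probe set of Pdlim7 above the filter gave 1.34, but there the groups overlapped. Smtn, smoothelin, was at 10.20, 9.33 and 9.26 against 10.07, 10.00 and 10.27, and differed by 0.51 ± 0.31. Non-transgenic replicate 1 lay among its transgenic values, and the difference was 0.82 without that culture. Csrp1, a LIM protein of smooth muscle, differed by 0.33 ± 0.21 and was highest in transgenic replicate 3 at 11.95, without which it was 0.19. Flna, filamin A, differed by 0.13 ± 0.13 and its transgenic values spanned only 13.71 to 13.74, with a difference of 0.25 without non-transgenic replicate 1 and of 0.0652 without non-transgenic replicate 3. Synpo2, synaptopodin 2, differed by -0.16 ± 0.35, turning to 0.11 with median centring and to 0.16 without transgenic replicate 2. Its second probe set above the filter differed by -1.32, with overlap, at 7.89, 8.98 and 8.48 against 5.99, 6.81 and 8.59.

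For the intermediate filaments, Vim overlapped between the groups and Des was dim. Vim, vimentin, the filament protein of mesenchymal and endothelial cells, was at 15.26, 15.06 and 15.23 against 15.29, 15.25 and 14.87. The difference of -0.0449 ± 0.13 (SE, limma adjusted p = 0.899) turned to 0.0908 with quantile normalization, to 0.22 with median centring and to 0.0905 without transgenic replicate 3. Des, desmin, that of muscle, was below the filter at 5.55, 4.46 and 4.83 against 5.14, 8.03 and 8.35. Transgenic replicates 2 and 3 were above the filter on their own and replicate 1 lay with the non-transgenic cultures. The second probe set of Des was dim on all 6 arrays, at 4.32 to 5.75, and did not show this.

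None of the 3 transcription genes separated the groups, and each varied more among transgenic than among non-transgenic cultures. Genes in general did so too, with a median SD over all genes tested of 0.32 among transgenic and 0.18 among non-transgenic cultures. Srf was at 10.22, 10.47 and 10.40 against 9.23, 10.52 and 11.20, spanning 0.24 units among controls and 1.97 among transgenic cultures. Its lowest and its highest value were both transgenic, replicates 1 and 3. The difference was -0.0494 ± 0.46 (SE, limma adjusted p = 0.973), turning to 0.22 with median centring, to 0.0054 with quantile normalization, to 0.49 without transgenic replicate 1 and to 0.0017 without non-transgenic replicate 2. Myocd, myocardin, the partner of SRF in smooth muscle and heart, was at 8.40, 8.35 and 8.71 against 8.83, 10.12 and 8.11. Transgenic replicate 2 stood out, and the difference was 0.53 ± 0.49 with it and -0.0162 without it. Mustn1, a small nuclear protein of the musculoskeletal system, was at 11.32, 11.40 and 11.39 against 10.16, 10.12 and 11.65. The non-transgenic values were almost equal, transgenic replicates 1 and 2 lay more than 1 unit below them and replicate 3 above them, and the difference was -0.72 ± 0.40 (SE, limma adjusted p = 0.488), or -0.48 without transgenic replicate 1 and -0.46 without transgenic replicate 2.

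Pln, phospholamban, which restrains the calcium pump of the sarcoplasmic reticulum, and Kcnmb1, the beta subunit of the calcium-activated potassium channel of smooth muscle, were below the filter on every array, at 5.08 to 6.02 and 5.26 to 6.74, and were not tested. Pdgfrb, the receptor of pericytes and other mesenchymal cells for platelet-derived growth factor B, was above the filter on all arrays, at 14.24, 13.99 and 13.87 against 14.05, 13.81 and 13.97. Its difference of -0.0892 ± 0.13 (SE, limma adjusted p = 0.787) turned to 0.18 with median centring and to 0.0131 without non-transgenic replicate 1. Cspg4, or NG2, another pericyte gene, was below the filter on average and at 8.83 in non-transgenic replicate 1 and 8.17 in transgenic replicate 3, with 5.04 to 6.68 elsewhere. Its second probe set was also highest in these cultures, 1 of each group, at 7.24 and 7.25.

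Without transgenic replicate 3, limma called 7 of the 26 contractile genes, 4 higher and 3 lower, against 14.7% of all genes (6.88% higher and 7.83% lower). The higher ones were Tagln2 at 1.68 ± 0.31 (adjusted p = 0.0135), Ppp1r14b at 0.98 ± 0.19 (0.0172), Actn1 at 0.69 ± 0.19 (0.0447) and Cnn2 at 0.45 ± 0.12 (0.0438), each with its SE. The lower ones were Mustn1 at -1.22 ± 0.18 (adjusted p = 0.00771), Ppp1r12b at -1.01 ± 0.24 (0.0321) and Myl6 at -0.98 ± 0.21 (0.0220). The groups then did not overlap for 10 of the 26, 6 higher and 4 lower, against 50.2% of all genes (22.8% higher and 27.4% lower). On 5 of these 7 genes transgenic replicate 3 itself lay on the called side of the non-transgenic mean, the exceptions being Mustn1 and Ppp1r12b. Leaving out any other single array gave 0 calls among these genes (0% of all genes in each case). The 2 transgenic cultures behind these calls are those with the highest summed leukocyte and macrophage signal, in replicate 1 mainly from Cd53 and Csf1r. Csf1r was also high in the left-out replicate 3 (10.59). The same 2 cultures had the lowest summed adipocyte and skeletal and heart muscle signals. Of the muscle markers only Tnnt2 and Myh1 lay above the filter.

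Probe sets of one gene gave a check within the array. Of 76 probe sets named for the 33 genes, 51 lay above the filter, and 14 genes had more than 1 of these. Of the 25 additional probe sets, 20 had the sign of the brightest one of their gene and 5 the opposite sign, those of Cald1, Vim, Srf and Tpm1, whose brightest probe sets differed by only -0.0588 to -0.0313. Tpm1 also had a dimmer probe set that was lower without overlap, by -0.90. The 4 probe sets of Tpm2 were all higher, by 0.28 for the brightest, 0.27 for the next, and 1.25 and 0.47 for the dimmer ones. The brightest probe sets of Cald1 and Srf end in _s_at, as that of Acta2 does. Averaging every probe set of a gene, 6 of 23 contractile genes did not overlap, against 18.8% of all genes so treated.

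**Figure D4:**
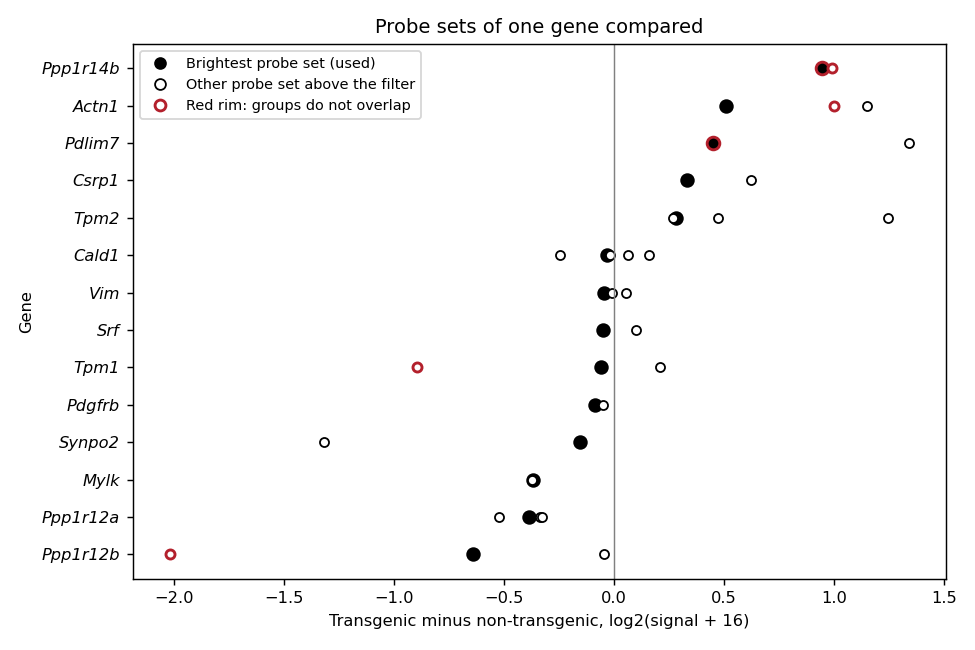
Group difference in log2(signal + 16), as transgenic minus non-transgenic, of every probe set above the filter for the 14 contractile genes with more than 1, the brightest filled and those whose groups do not overlap with a red rim. Both probe sets of Ppp1r14b lie near 0.95 to 0.99, while those of Ppp1r12b spread from -2.02 to -0.0452.

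Family members were set against each other within each array, as the log2 difference of the 2 genes, for the 4 pairs with both genes above the filter. This difference cancels the scaling of the array, and it shows unequal change only. Tagln2 minus Tagln was -1.59, -1.32 and -1.74 in controls against -0.27, -0.92 and -0.84 with the transgene. All 3 transgenic cultures lay above the non-transgenic ones, by 0.87 (two-sided exact permutation p = 0.1, the smallest possible here, and 0.2 adjusted over the 4 pairs). Tpm2 minus Tpm1 also did not overlap, with 0.20, 0.0608 and 0.17 against 0.35, 0.53 and 0.57 (exact permutation p = 0.1, adjusted p = 0.2). That rests on the brightest Tpm1 probe set, which differed by -0.0588. The next brightest differed by 0.21, near the 0.28 of Tpm2, and was not used for the pair. Ppp1r14b minus Ppp1r14a differed by 0.52 with overlap (exact permutation p = 0.5), and Ppp1r12b minus Ppp1r12a by -0.25 (exact permutation p = 0.8). The pairs were chosen after the values were seen.

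Genes that act with the contractile genes were counted from 4 lists. Of 23 tested targets and partners of SRF and the MRTF proteins, 9 were higher and 14 lower, with a median of -0.0566, and 20 were higher with median centring, where the median of all genes moved too. The groups did not overlap for 7 of the 23, 2 higher and 5 lower, against 16.1%, and 2 had an unadjusted p under 0.05. These were Lpp, a partner of zyxin at adhesions (-0.24 ± 0.0974, but 0.0242 with median centring), and Fhl1, a LIM protein of muscle (-0.53 ± 0.22, but -0.26 with median centring and -0.27 without transgenic replicate 2). The MRTF genes themselves, named after their values were seen, differed by 0.0379 (Mrtfa, or -0.26 without transgenic replicate 3) and 0.19 (Mrtfb). Of 20 genes of RhoA, calcium and cyclic GMP control, 6 were higher and 14 lower, with 14 higher after median centring. The cyclic GMP-dependent kinase Prkg1, which relaxes smooth muscle, had the smallest p, at 12.59, 12.80 and 12.47 against 11.47, 11.40 and 12.21. All transgenic values of Prkg1 were below the non-transgenic ones, by -0.93 ± 0.24 (SE, limma adjusted p = 0.428). The cyclic GMP phosphodiesterase Pde5a differed by -0.62 ± 0.30.

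Regulators of smooth muscle genes other than Srf and Myocd lay lower in 14 of 16, with a median of -0.37 beside -0.0212 over all genes, and 6 had an unadjusted p under 0.05 in that direction (5.02% of all genes did). With each array centred on its median, 10 of 16 were lower. The list was not divided into activators and repressors, so these counts give no direction for the genes they regulate. Mef2c, a MADS box factor like SRF, was at 11.01, 11.72 and 11.76 against 10.48, 10.20 and 11.06. Transgenic replicate 3 of Mef2c was just above the lowest non-transgenic value and the other transgenic cultures below all of them, for a difference of -0.92 ± 0.31 (SE, limma adjusted p = 0.428). The other 5, named after their values were seen, were Hopx (-1.69), Hey2 (-0.94), Gata6 (-0.87), Mef2a (-0.68) and Prrx1 (-0.46). Smad3, which carries TGF-beta signals, went the other way at 0.46 ± 0.15. limma called 0 of the 16, and 9, all lower, without transgenic replicate 3, where 7.83% of all genes were called lower, while without transgenic replicate 2, and with median centring, 0 of the 16 were lower with an unadjusted p under 0.05. Hopx, for one, was -0.99 without transgenic replicate 2.

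Of 11 further mural cell markers above the filter, 5 were higher and 6 lower, with a median of -0.0066. The groups did not overlap for 3 of them, 2 higher and 1 lower (27.3%, against 16.1% of all genes). The lower one, Itga8, named after its values were seen, differed by -0.87, or -0.50 without transgenic replicate 2. Ndufa4l2, a mitochondrial protein of pericytes that is also induced by low oxygen, was at 9.56, 9.06 and 9.24 against 12.28, 11.29 and 10.37. Every transgenic value exceeded every non-transgenic one, by 2.03 ± 0.45 (SE, limma adjusted p = 0.428). Npnt, the matrix protein nephronectin, was at 8.56, 8.79 and 8.91 against 9.43, 10.62 and 9.29. Its groups were also apart, by 1.03 ± 0.39, or 0.61 without transgenic replicate 2, and with transgenic replicate 3 left out limma called 3 of the 11, 1 higher and 2 lower, against 14.7%.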

How the data were processed

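The deposited table holds linear intensity values from MAS5 software, named in the submitters' processing notes, with 1 value for each probe set on each array. Roughly 50 ng of RNA per culture was amplified, per the study's design text. Precision is limited by the number of arrays. Of 45101 probe sets, 64 were controls. A single gene was annotated for 34945, more than one for 932 (left unnamed) and none for 9160. For 34754 probe sets the symbol was taken from RefSeq (GRCm38.p6) by gene identifier, whether or not it changed. Each gene was read from its brightest probe set as log2(intensity + 16). Genes whose mean reached 7.717 (a signal of 194.3) entered limma (version 3.58.1 under R 4.3.3), by lmFit and then eBayes allowing a trend, two-sided, with Benjamini-Hochberg adjustment over all 11208. The procedure was tested on simulated data with noise drawn independently for each gene and array. That cannot show how it treats an array that stands apart from its group, as transgenic replicate 3 does. Replicates are separate cultures, per the study's design text. The contractile genes and all lists were chosen with earlier results of these data known. All contractile genes are named, and of each further list the 2 tested genes with the smallest p; promoters are those of thin filament genes with the most CArG boxes, with other matches as short stretches. Samples numbered alike were not paired. Alternatives were pseudocounts of 1 and 64, other filters, scalings and priors, array weights, probe set means, a replicate block and each array left out; those for the further lists were added after seeing the data. Motifs were searched with Python 3.11.15.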

Additional observations from a re-analysis of the deposited data

How the results depend on the processing

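limma called 0 genes in all and 0 contractile genes at pseudocounts of 1 and 64, under both other filters, both scalings, without the variance trend, with probe set means and with the replicate block, over 7052 to 18193 genes tested. Estimated array weights gave 5504 genes and 14 contractile genes, resting on weights of 5.24 for transgenic replicate 1 and 4.65 for non-transgenic replicate 2 against 0.177 to 1.20 for the others. With each array left out the counts ran from 0 to 1649 genes and from 0 to 7 contractile genes, all calls coming without transgenic replicate 3. The samples' numbers did not pair them: deviations of same-numbered samples correlated at 0.0421, -0.278 and -0.0336, and the replicate block changed no call.

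The median over the contractile genes was 0.0579 with quantile normalization, 0.23 with median centring and 0.14 with array weights, and -0.0394 to 0.0922 with each array left out. Leaving out transgenic replicates 1 and 3 turned its sign (0.0809 and 0.0922), as did leaving out non-transgenic replicates 1 and 3 (0.0667 and 0.0274). Contractile genes without overlap numbered 10 with median centring (31.6% of all genes then), 6 of 23 with probe set means (18.8%), and 3 to 10 with each array left out: 9 without non-transgenic replicate 1 (33% of all genes), 5 without its replicate 3 (21%), 5 without transgenic replicate 1 (22.1%) and 10 without its replicate 3 (50.2%); with fewer values per group an overlap is less likely by construction.

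Of 408 pairs of a tested contractile gene and an alternative, 353 kept direction and side of the threshold, 21 were called in addition and 34, in 12 genes, changed sign. With median centring Acta2 was 0.22, Tpm1 0.21, Cald1 0.24, Synpo2 0.11, Vim 0.22, Srf 0.22 and Pdgfrb 0.18. With array weights Acta2 was 0.0821, Tpm1 0.0204, Cald1 0.10, Mylk 0.20, Ppp1r14a -0.0383, Vim 0.17 and Pdgfrb 0.0408. With quantile normalization Cald1 was 0.0249, Vim 0.0908 and Srf 0.0054, and with probe set means Srf was 0.026. With each array left out the ranges that crossed 0 were -0.27 to 0.12 for Acta2, -0.19 to 0.0972 for Tpm1, -0.0851 to 0.0653 for Cald1, -0.22 to 0.73 for Tagln, -0.92 to 0.0215 for Lmod1, -0.37 to 0.16 for Synpo2, -0.12 to 0.0905 for Vim, -0.49 to 0.49 for Srf, -0.0162 to 0.98 for Myocd and -0.17 to 0.0131 for Pdgfrb. The cause was not tested. The other 14 genes, Ppp1r14b, Tagln2, Cnn2, Actn1, Pdlim7 and Myl6 among them, kept their direction under every alternative run.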
